A study of Homo sapiens with 4 samples.

Results

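The subunits and inhibitors of NFκB were followed in OVSAYO cells, a human line established from a clear cell carcinoma of the ovary, with the transcription factor Sp1 present or silenced and with or without CoCl2, a hypoxia-mimicking agent. The group was defined as the 10 genes RELA, RELB, REL, NFKB1, NFKB2, NFKBIA, NFKBIB, NFKBIE, TNFAIP3 and BCL3, and every non-control probe whose RefSeq accession mapped to 1 of them was taken. This gave 11 probes of 41000 on the array and covered 9 of the 10 genes, against 17721 genes named on the whole array. RELA and TNFAIP3 had 2 probes each and the other 7 genes had 1. No accession on the array mapped to NFKB2 in the table used, so no signal is given for NFKB2. The genes lie on chromosomes 11 (RELA), 19 (RELB, NFKBIB and BCL3), 2 (REL), 4 (NFKB1), 14 (NFKBIA) and 6 (NFKBIE and TNFAIP3).

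NFκB is a family of dimeric transcription factors that bind κB sites in DNA and drive inflammatory, survival and stress genes. In resting cells, inhibitors of the IκB family hold the dimers in the cytoplasm, and a signal that activates the IκB kinase (IKK) leads to destruction of the inhibitor and entry of the dimer into the nucleus. Several of the inhibitors are themselves well known targets of NFκB, which closes a negative feedback loop. Activity of the pathway is set largely at the protein level, and the arrays measured only RNA.

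The control (NS-si) cells carried a negative control siRNA (Silencer) and the Sp1-silenced (Sp1-si) cells carried a pool of siRNA against Sp1, both delivered with Lipofectamine in RPMI1640 medium. After 40 h of culture according to the labels, cells of both kinds were kept for 4 h with 0.5 mM CoCl2 (NS-si → CoCl2 and Sp1-si → CoCl2), or received none. The legend in the published text gives a different time between transfection and exposure. Each of the 4 conditions was measured on 1 single-colour array, and all 4 arrays were on 1 slide, so that there is no replicate of any condition, no test was run, and every ratio compares a pair of arrays. In RNA from whole cultures, less RNA per cell and fewer cells that hold it cannot be told apart.

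The scaled signal used below is the processed spot intensity divided by the 75th percentile of its array and brought to a common level, with the spots of a probe averaged on the log2 scale. It can be compared between arrays for 1 probe but not between probes. The SD given with a log2 ratio is the spread between spots. It comes from the 10 spots of the probe for RELA A_23_P104689 and NFKB1, and a probe with 1 spot was given the median spot SD of those 10-spot probes whose signal was similar. It leaves out the variation between cultures. Where the order of the arrays is given for a probe, the share of all probes with that order was not counted. A ratio counted as past 2-fold had a log2 value of at least 1 or at most -1, and only then is a gene said to have risen or fallen. The signal at the 75th percentile was between 977 and 1285 on the 4 arrays, and between 30994 and 32433 probes were well above background on each. The 10-spot probe of SP1, the siRNA target, had scaled signals of 543 without and 492 with CoCl2 in NS-si cells, and 39.9 without and 33.8 with CoCl2 in Sp1-si cells. Of the 7 markers of ovarian clear cell carcinoma examined, 7 were well above background on all 4 arrays. Of these, CDH6 fell with CoCl2 (log2 ratio -2.19 in NS-si and -1.50 in Sp1-silenced cells), NAPSA was lower in Sp1-silenced than in control cells (-2.33 without and -2.39 with CoCl2), and the other 5 were not past 2-fold in any of the 4 comparisons. Among 9 markers of other cell types, the leukocyte marker PTPRC, the endothelial markers PECAM1 and CDH5 and the fibroblast marker COL3A1 were well above background on no array. CD3E, CD14, VWF, DCN and LUM were measured on all 4. Of these 5, LUM was lower in Sp1-silenced than in control NS-si cells by more than 2-fold without CoCl2 (log2 ratio -1.08), and none was past 2-fold with CoCl2. The part of these markers in the ratios below was not tested.

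Upstream sequences are shown for TNFAIP3, NFKBIA and REL. TNFAIP3 had the widest range over the 4 arrays, NFKBIA is the classical feedback inhibitor, and REL had CoCl2 ratios of opposite sign in the 2 kinds of cells. Each is the 250 bases before the annotated start in RefSeq (GRCh38.p14), 5′ to 3′ on the strand of the gene. Capitals mark matches to the κB consensus on either strand. The windows are chr6:137867009-137867258 (+ strand) for TNFAIP3, chr14:35404750-35404999 (- strand) for NFKBIA and chr2:60881324-60881573 (+ strand) for REL.
TNFAIP3: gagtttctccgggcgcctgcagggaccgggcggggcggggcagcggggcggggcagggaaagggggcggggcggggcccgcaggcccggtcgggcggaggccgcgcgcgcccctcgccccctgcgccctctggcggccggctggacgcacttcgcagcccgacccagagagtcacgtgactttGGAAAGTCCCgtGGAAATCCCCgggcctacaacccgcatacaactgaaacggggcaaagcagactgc
NFKBIA: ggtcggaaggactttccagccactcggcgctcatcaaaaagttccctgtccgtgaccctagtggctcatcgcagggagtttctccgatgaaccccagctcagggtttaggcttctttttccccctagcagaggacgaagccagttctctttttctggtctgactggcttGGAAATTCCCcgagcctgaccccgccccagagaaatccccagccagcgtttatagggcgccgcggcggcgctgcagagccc
REL: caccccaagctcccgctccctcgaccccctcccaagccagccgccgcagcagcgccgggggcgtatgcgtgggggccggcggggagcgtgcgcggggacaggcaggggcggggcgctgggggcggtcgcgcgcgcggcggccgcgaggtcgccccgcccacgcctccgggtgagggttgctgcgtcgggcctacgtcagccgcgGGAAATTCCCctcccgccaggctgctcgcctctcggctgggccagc

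The TNFAIP3 window held 2 κB matches, at 67 to 58 and 55 to 46 bases before the start, and 6 copies of the GC box GGGCGG, the core of the motif that Sp1 binds. The NFKBIA window held 1 κB match, at 81 to 72 bases before the start, and 1 GC box. The REL window held 1 κB match, at 46 to 37 bases, and 3 GC boxes. TNFAIP3 was the only gene with a window that held the letters ACGTG, the core of the hypoxia response element. Windows were available for 8 of the 10 genes at 13 start sites, of which 3 belong to NFKB2, and RELB and NFKBIE had no entry. A κB match was found at 7 of the 13 sites (2 of them NFKB2 sites), against 6.88% of the 35116 promoters of the same table. A GC box was found at 11 of the 13 sites, against 42.6% of all promoters, and ACGTG at 1 site, against 18.5%. The GC content of the 13 windows ran from 48.4% to 80.8%. That of all promoters was not computed, so the shares are not matched for it. Both strands were searched and overlapping matches were counted. Start sites of 1 gene can share sequence. These matches describe letters in a window and are not evidence of binding.

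**Figure D1:**
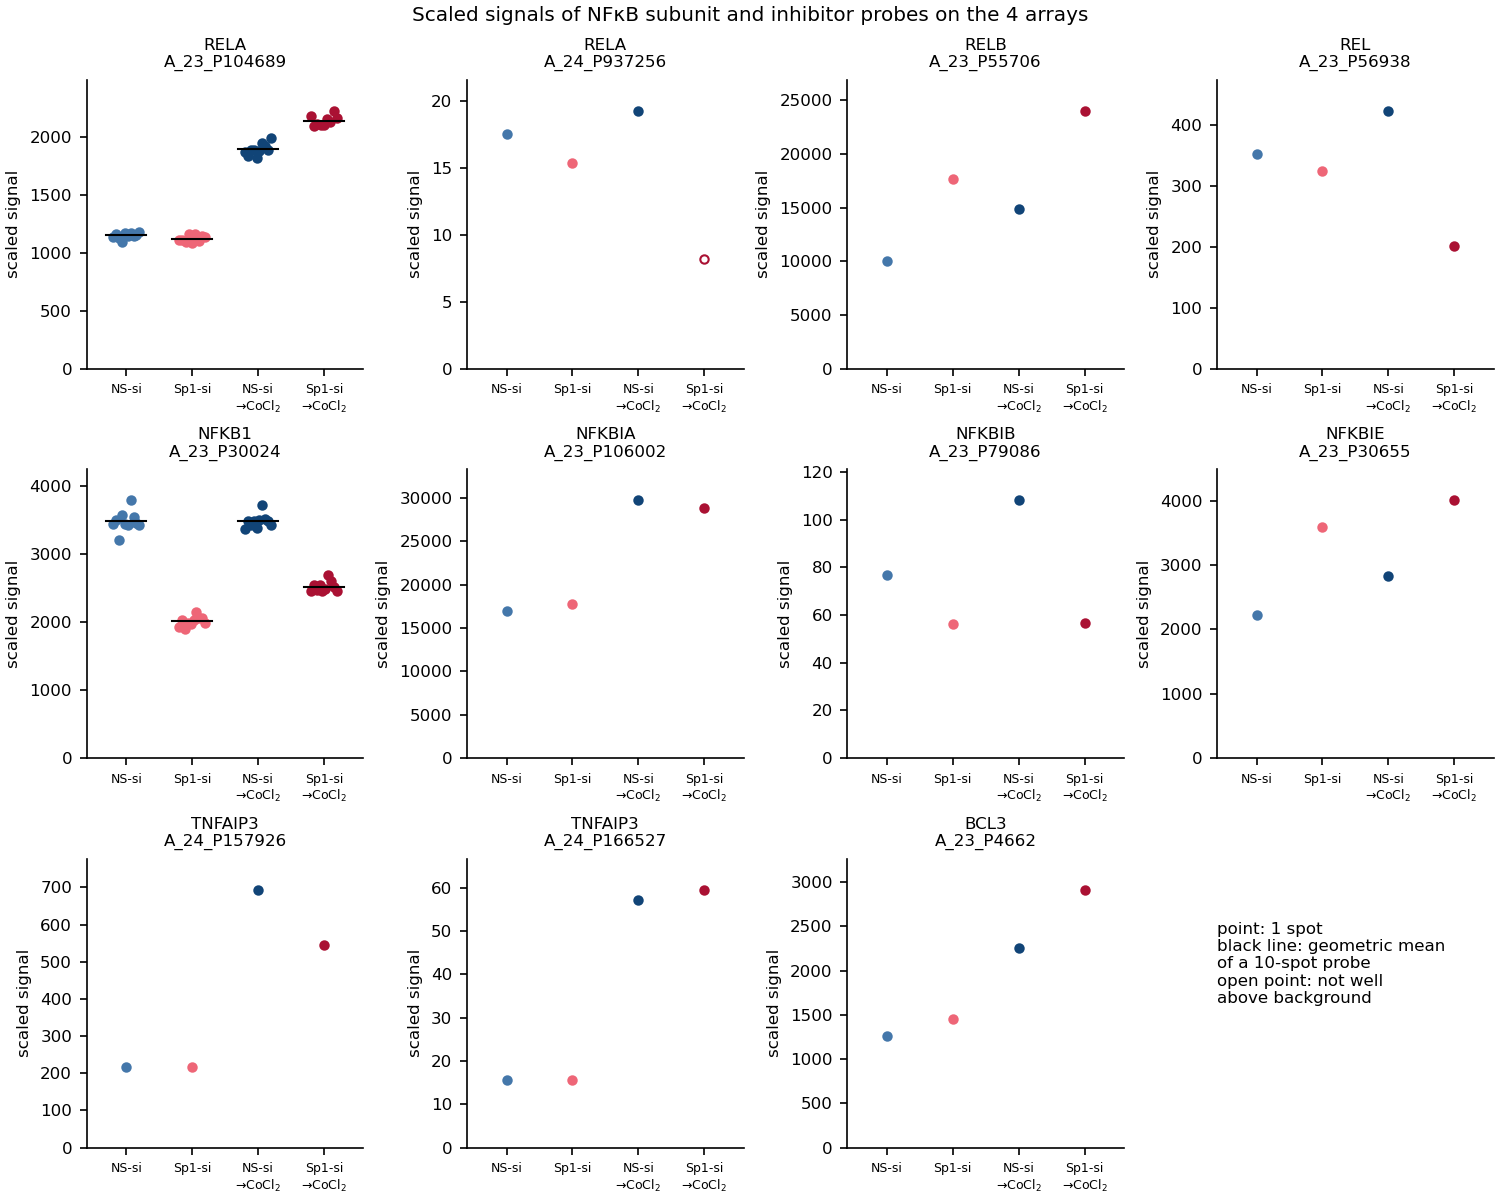
Scaled signal (linear axis from 0, arbitrary units) of each of the 11 probes on the 4 arrays. Each point is 1 spot, the black line is the geometric mean of a probe with 10 spots, and the open point marks a probe not well above background. Both CoCl2 arrays lie above both others for TNFAIP3, NFKBIA, BCL3 and the 10-spot probe of RELA. Both Sp1-si arrays lie below both NS-si arrays for NFKB1, NFKBIB, REL and the dim RELA probe, and above both for RELB and NFKBIE.

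Among the activating subunits, RELA encodes the p65 protein, the main transactivating partner of the classical dimer. Its 10-spot probe had scaled signals of 1151 without and 1896 with CoCl2 in NS-si cells, and 1124 without and 2144 with CoCl2 in Sp1-si cells. The highest spot without CoCl2 was at 1178 and the lowest with it at 1824. Spots of an array share the same RNA sample and are not replicates. How many 10-spot probes separate in this way was not counted. The log2 CoCl2 ratio was 0.72 (SD 0.045) in NS-si cells and 0.93 (SD 0.036) in Sp1-si cells, neither past 2-fold. Without CoCl2, the Sp1-si and NS-si arrays differed by a log2 ratio of -0.034 (SD 0.028), about the spread between spots.

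The other RELA probe, A_24_P937256, is assigned to a different RefSeq transcript and was close to the detection limit. Its scaled signals were 17.5 without and 19.3 with CoCl2 in NS-si cells and 15.4 without CoCl2 in Sp1-si cells, and it was not well above background in Sp1-si → CoCl2 cells, where it read 8.18. It was at least 2.17-fold lower in Sp1-si → CoCl2 than in NS-si → CoCl2 cells, against a spot SD of 0.36 on the log2 scale. The log2 ratio of its measured signals, -1.24, was not past 2-fold with quantile normalization (-0.97), without scaling (-0.84) or with normexp (-0.50). The 2 RELA probes therefore disagreed in this comparison, in which the 10-spot probe had a log2 ratio of 0.18 (SD 0.044).

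RELB encodes the subunit of the alternative NFκB pathway. The RELB probe had scaled signals of 9994 without and 14874 with CoCl2 in NS-si cells, and 17659 without and 24043 with CoCl2 in Sp1-si cells. RELB was thus highest where Sp1 was silenced and CoCl2 was added, and lowest where neither was done. The log2 ratio of Sp1-si to NS-si cells was 0.82 (SD 0.023) without CoCl2 and 0.69 (SD 0.023) with it, and the CoCl2 ratio was 0.57 (SD 0.029) in NS-si and 0.45 (SD 0.026) in Sp1-silenced cells. None of the 4 was past 2-fold. Each was more than 10 times its SD, but that SD is borrowed from other probes and leaves out the variation between cultures.

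REL encodes c-Rel, a transactivating subunit best known from lymphocytes. REL had scaled signals of 352 without and 424 with CoCl2 in NS-si cells, and 324 without and 202 with CoCl2 in Sp1-si cells. The Sp1-si → CoCl2 array was the lowest and the NS-si → CoCl2 array the highest. REL was 2.10-fold lower in Sp1-si → CoCl2 than in NS-si → CoCl2 cells (log2 ratio -1.07, SD 0.081). This ratio was not past 2-fold with median scaling (-0.96), without scaling (-0.68) or with normexp. Without CoCl2 the log2 ratio of Sp1-si to NS-si cells was -0.12 (SD 0.071). The log2 CoCl2 ratio was 0.27 (SD 0.071) in NS-si cells and -0.68 (SD 0.075) in Sp1-si cells. The difference between them was -0.95 (SD 0.11), just short of 2-fold.

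NFKB1 encodes the precursor of the p50 subunit, which pairs with RELA. The scaled signals of its 10-spot probe were 3482 without and 3481 with CoCl2 in NS-si cells, and 2012 without and 2523 with CoCl2 in Sp1-si cells. Both Sp1-si arrays were below both NS-si arrays. The highest Sp1-si → CoCl2 spot was at 2697 and the lowest NS-si spot at 3204, and these spots are not replicates either. The log2 ratio of Sp1-si to NS-si cells was -0.79 (SD 0.036) without and -0.46 (SD 0.017) with CoCl2. In NS-si cells the log2 CoCl2 ratio was -0.00034 (SD 0.041), far inside the spot spread, and in Sp1-si cells it was 0.33 (SD 0.029).

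Of the inhibitors, NFKBIA encodes IκBα, the inhibitor that is resynthesised after NFκB has been activated. NFKBIA had scaled signals of 16918 without and 29765 with CoCl2 in NS-si cells, and 17748 without and 28903 with CoCl2 in Sp1-si cells. Both CoCl2 arrays were higher than both others. The log2 CoCl2 ratio was 0.82 (SD 0.029) in NS-si and 0.70 (SD 0.026) in Sp1-silenced cells, below 2-fold in each. The ratio of Sp1-si to NS-si cells was 0.069 (SD 0.023) without CoCl2 and -0.042 (SD 0.023) with it, and the sign of the latter depended on the scaling.

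NFKBIB and NFKBIE encode IκBβ and IκBε, related inhibitors of the same family. The NFKBIB scaled signals were 76.7 without and 108 with CoCl2 in NS-si cells, and 56.2 without and 56.7 with CoCl2 in Sp1-si cells. Both Sp1-si arrays lay below both NS-si arrays and could not be told apart from each other, with a log2 CoCl2 ratio of 0.012 (SD 0.075) in Sp1-si cells. In NS-si cells that ratio was 0.50 (SD 0.071). The log2 ratio of Sp1-si to NS-si cells was -0.45 (SD 0.071) without CoCl2 and -0.93 (SD 0.081) with it. NFKBIE went the other way, with scaled signals of 2227 without and 2835 with CoCl2 in NS-si cells, and 3587 without and 4007 with CoCl2 in Sp1-si cells. Both Sp1-si arrays were above both NS-si arrays, at log2 ratios of 0.69 (SD 0.029) without and 0.50 (SD 0.033) with CoCl2. None of these NFKBIB and NFKBIE ratios was past 2-fold.

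TNFAIP3 encodes a ubiquitin-editing enzyme that shuts off signalling from the receptors to IKK, and it was the gene of the group with the largest CoCl2 ratio. Scaled signals of probe A_24_P157926 were 218 without and 694 with CoCl2 in NS-si cells, and 217 without and 545 with CoCl2 in Sp1-si cells. TNFAIP3 therefore rose with CoCl2 by 3.18-fold in NS-si cells (log2 ratio 1.67, SD 0.041) and by 2.51-fold in Sp1-si cells (log2 ratio 1.33, SD 0.037). The levels without CoCl2 differed by a log2 ratio of -0.0074 (SD 0.037) between Sp1-si and NS-si cells, inside the spot spread.

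The dimmer TNFAIP3 probe, A_24_P166527, is assigned to the same RefSeq transcript. Its scaled signals were 15.7 without and 57.1 with CoCl2 in NS-si cells, and 15.7 without and 59.6 with CoCl2 in Sp1-si cells, with log2 CoCl2 ratios of 1.87 (SD 0.31) and 1.93 (SD 0.29). Both probes put both CoCl2 arrays above both others. The difference of the CoCl2 log2 ratios was -0.34 (SD 0.052) by the brighter probe and 0.060 (SD 0.48) by the dimmer, which lie less than 1 SD of the dimmer probe apart. With normexp on median signals the log2 CoCl2 ratio of the dimmer probe was 0.72 in NS-si and 0.65 in Sp1-silenced cells.

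BCL3 encodes a nuclear IκB family protein that works with NFκB dimers on DNA rather than holding them in the cytoplasm. Its scaled signals were 1265 without and 2255 with CoCl2 in NS-si cells, and 1454 without and 2915 with CoCl2 in Sp1-si cells. Both CoCl2 arrays were higher than both others. The log2 CoCl2 ratio was 0.83 (SD 0.030) in NS-si cells and in Sp1-silenced cells BCL3 rose by 2.01-fold (SD 0.031 on the log2 scale), at the threshold. The log2 value was 0.95 with the scale of the authors' value table. BCL3 was also not past 2-fold in Sp1-silenced cells with normexp, or when the 75th percentile was taken over probes well above background on every array. The log2 ratio of Sp1-si to NS-si cells was 0.20 (SD 0.029) without and 0.37 (SD 0.033) with CoCl2.

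**Figure D2:**
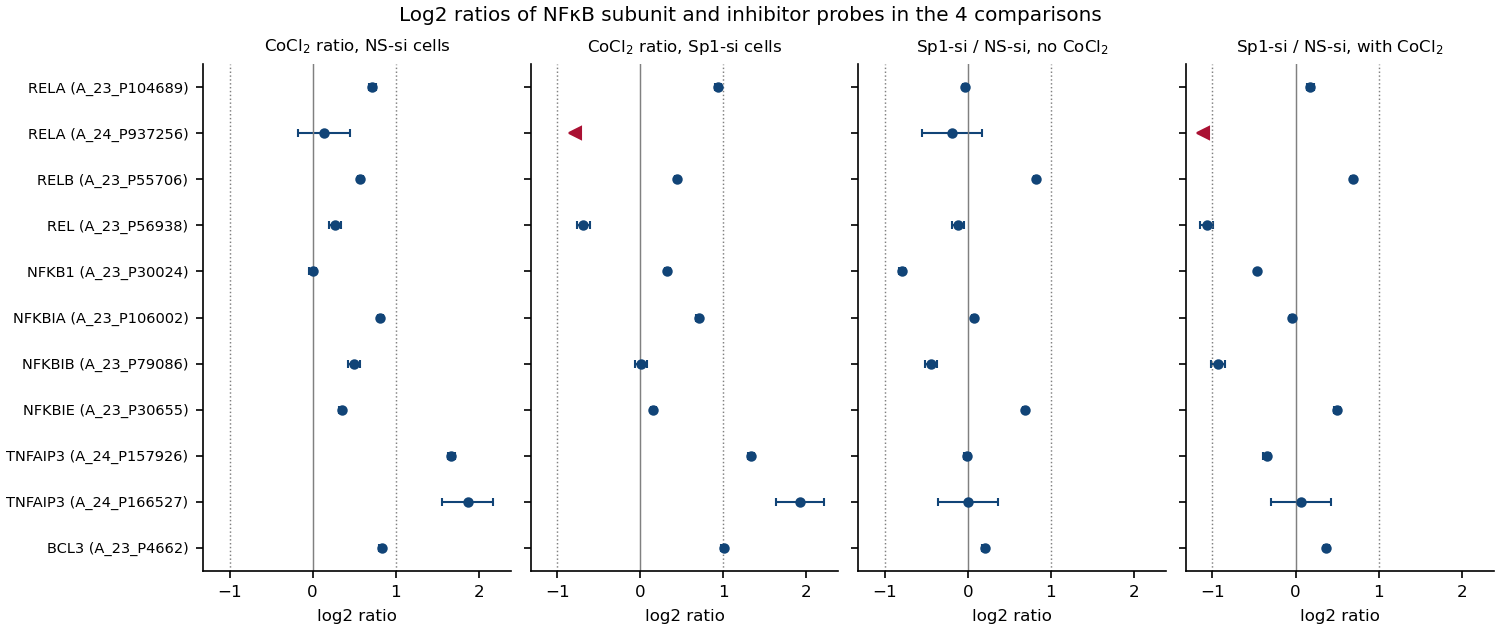
Log2 ratios (horizontal axes) of the 11 probes in the 4 comparisons, with bars of 1 SD between spots. Dotted lines mark 2-fold, and triangles mark bounds for the RELA probe that was not well above background in Sp1-si → CoCl2 cells. The TNFAIP3 probes lie beyond 2-fold with CoCl2 in both kinds of cells, and REL and the dim RELA probe lie beyond it on the lower side of the comparison of Sp1-si → CoCl2 with NS-si → CoCl2.

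Counted over the 11 probes, 2 rose and 0 fell past 2-fold with CoCl2 in NS-si cells, both of them TNFAIP3, against 4.54% of all 32849 probes with a value that were higher and 4.35% that were lower. In Sp1-si cells 3 rose and 0 fell, the TNFAIP3 probes and BCL3, against 3.77% higher and 6.25% lower among 32302 probes. The log2 CoCl2 ratio was above 0 for 10 of the 11 probes in NS-si cells and for 9 in Sp1-silenced cells, and its median was 0.57 and 0.45, whereas the median over all probes was 0.021 and -0.031. The lone value below 0 in NS-si cells was that of NFKB1, and it turned positive with median scaling. The dim RELA probe was below 0 in NS-si cells without any scaling. With CoCl2, 5 probes in NS-si cells and 7 in Sp1-silenced cells were past 1.5-fold in either direction, against 23.7% and 25.8% of all probes. The 2 TNFAIP3 probes measure the same RNA and do not count as separate genes. Each array enters several of these comparisons, so the comparisons are not independent of each other.

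Without CoCl2, 0 of the 11 probes were past 2-fold between Sp1-si and NS-si cells, against 5.50% higher and 5.89% lower among 33024 probes, and 3 were past 1.5-fold (RELB and NFKBIE higher and NFKB1 lower), against 26.5%. The median log2 ratio was -0.0074, close to the -0.013 of all probes. With CoCl2, 0 rose and 2 fell past 2-fold (REL and the dim RELA probe), against 6.33% higher and 9.67% lower among 32501 probes, and 4 were past 1.5-fold, against 36.4%. The median was -0.042, against -0.080 over all probes. Without any scaling between arrays REL had a log2 ratio of -0.68 in this comparison and was not past 2-fold, while RELB was, at 1.09.

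The question of the design, whether the response to CoCl2 depends on Sp1, is addressed for each gene by the difference of its CoCl2 log2 ratios, Sp1-si minus NS-si cells. This difference could be given for 10 probes, those detected well above background on every array. None was past 2-fold, against 1.05% higher and 4.87% lower among 30234 such probes, and only REL was past 1.5-fold, against 18.1%. The differences ran from -0.95 for REL (SD 0.11) to 0.33 for NFKB1 (SD 0.046), with a median of -0.12 against -0.014 over the 30234 probes. NFKBIB had -0.48 (SD 0.11), TNFAIP3 -0.34 (SD 0.052) by its brighter probe, NFKBIE -0.19 (SD 0.043), RELB -0.13 (SD 0.032) and NFKBIA -0.11 (SD 0.032). RELA had 0.21 (SD 0.050) and BCL3 0.17 (SD 0.043). The values of RELB, NFKBIA, NFKBIE and the brighter TNFAIP3 probe turned positive when the arrays were not scaled, a setting that moved the median difference of the 30234 probes to 0.44. The values of REL and NFKBIB stayed below 0 under all 7 alternatives, at -0.50 and -0.035 without scaling.

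**Figure D3:**
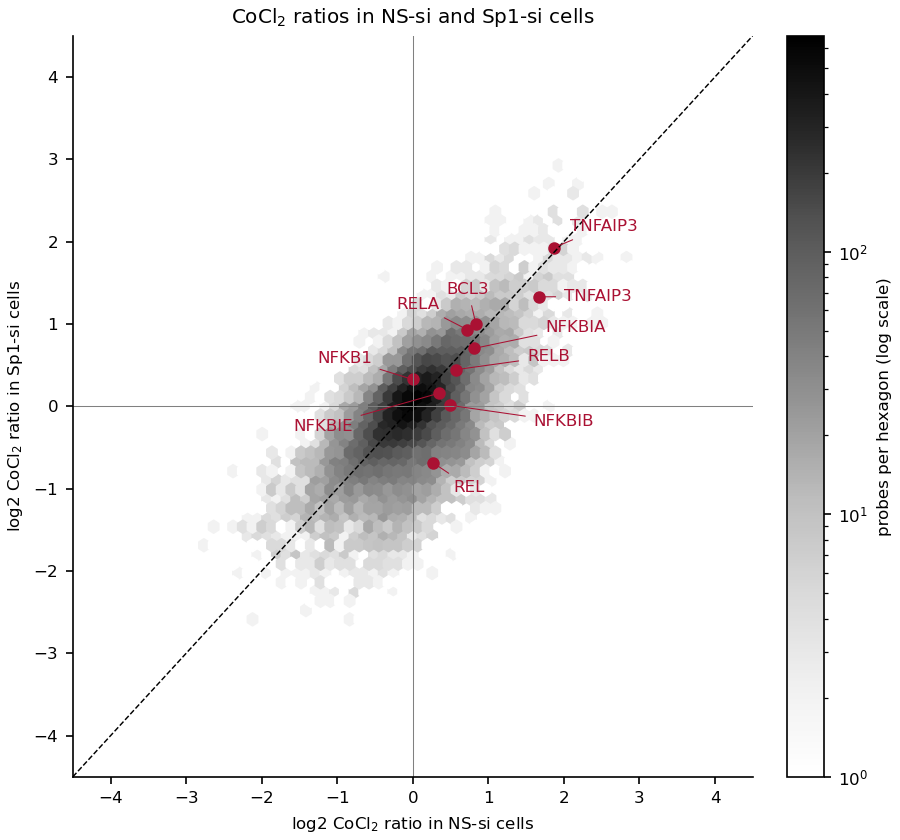
Log2 CoCl2 ratio in Sp1-si cells (vertical axis) against that in NS-si cells (horizontal axis) for probes well above background on all 4 arrays. Grey hexagons count all probes on a log scale, red points are 10 probes of the NFκB subunits and inhibitors, and the dashed line marks equal ratios. REL is alone among the red points right of the vertical and below the horizontal zero line, with 0.27 and -0.68, and NFKB1 lies on the vertical axis with 0.33 in Sp1-si cells.

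The other parts of the pathway were followed by 4 lists, with each gene represented by its brightest probe. Of 17 genes of IKK and the upstream kinases, among them the regulatory subunit IKBKG and the adaptors TAB1, TAB2 and TAB3, 3 rose and 1 fell with CoCl2 in NS-si cells, against 4.21% higher and 3.54% lower of all genes. MAP3K8, a kinase that links receptors to MAP kinases and NFκB, had scaled signals of 209 without and 743 with CoCl2 in NS-si cells, and 381 without and 1108 with CoCl2 in Sp1-si cells, and its log2 CoCl2 ratio was 1.83 (SD 0.041) in NS-si and 1.54 (SD 0.037) in Sp1-silenced cells. Of the 16 with a value in Sp1-si cells, 2 rose with CoCl2 and 0 fell, against 3.72% and 3.97% of all genes. Between Sp1-si and NS-si cells, 2 of 17 were lower without CoCl2, against 6.19% of all genes, and 1 of 16 with it, against 8.04%, and 0 were higher. The gene lower in both was the adaptor TAB3, with log2 ratios of -1.10 (SD 0.029) and -1.03 (SD 0.033), named here after its values were seen. With CoCl2, TAB3 was not past 2-fold without scaling, with median scaling, with the authors' value table or with normexp. Its dimmer probe gave -0.97 without CoCl2, not past 2-fold, and -1.02 with it.

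Of 19 receptor adaptors and ubiquitin enzymes, 2 rose with CoCl2 in NS-si cells, against 4.21% of all genes, and 1 in Sp1-silenced cells, against 3.72%, and 0 fell in either, against 3.54% and 3.97%. Between Sp1-si and NS-si cells, 2 were higher without CoCl2, against 6.20% of all genes, and 4 with CoCl2, against 7.20%, and 0 were lower in either. MALT1, a protease of the complex that relays antigen receptor signals to IKK, had scaled signals of 552 without and 622 with CoCl2 in NS-si cells, and 3132 without and 3077 with CoCl2 in Sp1-si cells. Its log2 ratio of Sp1-si to NS-si cells was 2.50 (SD 0.029) without CoCl2 and 2.31 (SD 0.033) with it, and both Sp1-si arrays were well above both NS-si arrays. BTRC, the ubiquitin ligase subunit that marks IκB for destruction, had log2 ratios of 1.11 (SD 0.037) and 1.47 (SD 0.039) in the same comparisons, but its dimmer probe gave 0.37 and 0.66. For BCL10, a partner of MALT1, the difference of the CoCl2 log2 ratios was -1.01 (SD 0.043), and another probe of the gene gave -0.00091. The BCL10 value was not past 2-fold under 4 of the 7 alternatives, at -0.56 without scaling.

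Among the other inhibitors and regulators, 16 of 18 had a value, and 2 rose with CoCl2 in NS-si cells, against 4.21% of all genes, and 2 in Sp1-silenced cells, against 3.72%, while 0 fell. Between Sp1-si and NS-si cells, 1 was higher and 0 were lower without CoCl2, against 6.20% and 6.19%, and 1 was higher and 1 lower with it, against 7.20% and 8.04%. NFKBID, a nuclear IκB protein like BCL3, had scaled signals of 59.4 without and 229 with CoCl2 in NS-si cells, and 98.5 without and 289 with CoCl2 in Sp1-si cells, with log2 CoCl2 ratios of 1.94 (SD 0.071) and 1.55 (SD 0.075). CYLD, a deubiquitinase that restrains signalling to IKK, was higher in Sp1-silenced than in control NS-si cells by a log2 ratio of 1.70 (SD 0.071) without CoCl2 and 1.74 (SD 0.081) with it. OTUD7B, another deubiquitinase, was lower in Sp1-si → CoCl2 than in NS-si → CoCl2 cells (log2 ratio -1.49, SD 0.081), with a difference of the CoCl2 log2 ratios of -1.11 (SD 0.11). Its dimmer probe had -0.61 and 0.11 for these values, and without scaling the difference by the brighter probe was -0.66.

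Of 36 target genes of NFκB, 29 had a value in NS-si cells, where 5 rose and 2 fell with CoCl2, against 4.21% and 3.54% of all genes. With normexp these counts were 2 and 1. In Sp1-si cells 2 rose and 4 fell among 29, against 3.72% and 3.97%. The median log2 CoCl2 ratio of the targets was 0.11 in NS-si and -0.0041 in Sp1-silenced cells, against 0.0044 and -0.0060 for all genes. Their median log2 ratio of Sp1-si to NS-si cells was 0.19 without and -0.14 with CoCl2, against -0.0093 and -0.030. The median difference of their CoCl2 log2 ratios was -0.24, against 0.016 for all genes, and it was 0.21 without scaling. GADD45B, a stress protein, had scaled signals of 1024 without and 4056 with CoCl2 in NS-si cells, and 1763 without and 5198 with CoCl2 in Sp1-si cells, with log2 CoCl2 ratios of 1.99 (SD 0.030) and 1.56 (SD 0.031). The chemokine CCL20 had a log2 CoCl2 ratio of 1.74 (SD 0.071) in NS-si cells and CXCL8 had 1.88 (SD 0.31), the latter at a signal of 12.5 without CoCl2. In Sp1-si cells the ratios were 1.44 (SD 0.075) for CCL20 and 0.68 (SD 0.29) for CXCL8. With normexp neither was past 2-fold in NS-si cells, at 0.90 for CCL20 and 0.60 for CXCL8. GADD45B was then the only target that rose in Sp1-si cells, so CCL20 was not past 2-fold there either. The chemokine CXCL2 fell, by log2 ratios of -1.63 (SD 0.041) in NS-si and -2.06 (SD 0.037) in Sp1-silenced cells. Its dimmer probe gave -0.98 in NS-si cells, not past 2-fold, and -1.37 in Sp1-silenced cells. The targets thus held members that moved in both directions with CoCl2.

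The cytokine IL6 had scaled signals of 682 without and 308 with CoCl2 in NS-si cells, and 2289 without and 727 with CoCl2 in Sp1-si cells. It was higher in Sp1-silenced than in control NS-si cells without CoCl2 (log2 ratio 1.75, SD 0.037) and fell with CoCl2 in both kinds of cells (log2 ratio -1.15, SD 0.030, in NS-si and -1.66, SD 0.038, in Sp1-silenced cells). With normexp CXCL2 was the only target that fell in NS-si cells, so IL6 was not past 2-fold there. Of the 28 targets with a value without CoCl2, 4 were higher in Sp1-silenced than in control NS-si cells and 0 were lower, against 6.20% and 6.19% of all genes. The transcription factor IRF1 was among them, with scaled signals of 252 without and 213 with CoCl2 in NS-si cells, and 1499 without and 823 with CoCl2 in Sp1-si cells and a log2 ratio of Sp1-si to NS-si cells of 2.57 (SD 0.037) without and 1.95 (SD 0.039) with CoCl2. TNF, the cytokine that activates the classical pathway, had a log2 ratio of 1.33 (SD 0.071) by its brightest probe and 0.29 by a 10-spot probe. With CoCl2, 3 of 29 targets were higher and 3 lower in Sp1-si cells, against 7.20% and 8.04% of all genes, and without scaling 5 were higher and 2 lower.

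BIRC3, an inhibitor of apoptosis, was lower in Sp1-si → CoCl2 than in NS-si → CoCl2 cells (log2 ratio -1.51, SD 0.023). Its scaled signals were 5146 without and 13714 with CoCl2 in NS-si cells, and 3584 without and 4799 with CoCl2 in Sp1-si cells, so that the NS-si → CoCl2 array stood above the other 3. For the difference of the CoCl2 ratios, 0 of 26 targets were higher and 2 lower past 2-fold, against 0.994% and 2.86% of all genes. These were CXCL8 (-1.20, SD 0.48) and PTGS2, the inducible cyclooxygenase (-1.08, SD 0.059). Neither was past 2-fold without scaling (-0.75 and -0.64) or with normexp (-0.60 and -0.94), and PTGS2 was not with median scaling (-0.99). ICAM1, the adhesion molecule and NFκB target at the centre of the study, has a 10-spot probe, and only 0, 1, 2 and 1 of its 10 spots passed the background call on the NS-si, Sp1-si, NS-si → CoCl2 and Sp1-si → CoCl2 arrays, so no ratio is given for ICAM1. The paper presents ICAM1 among array genes whose activation by CoCl2 depended on Sp1, and followed it with RT-PCR, reporter assays and chromatin immunoprecipitation.

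**Figure D4:**
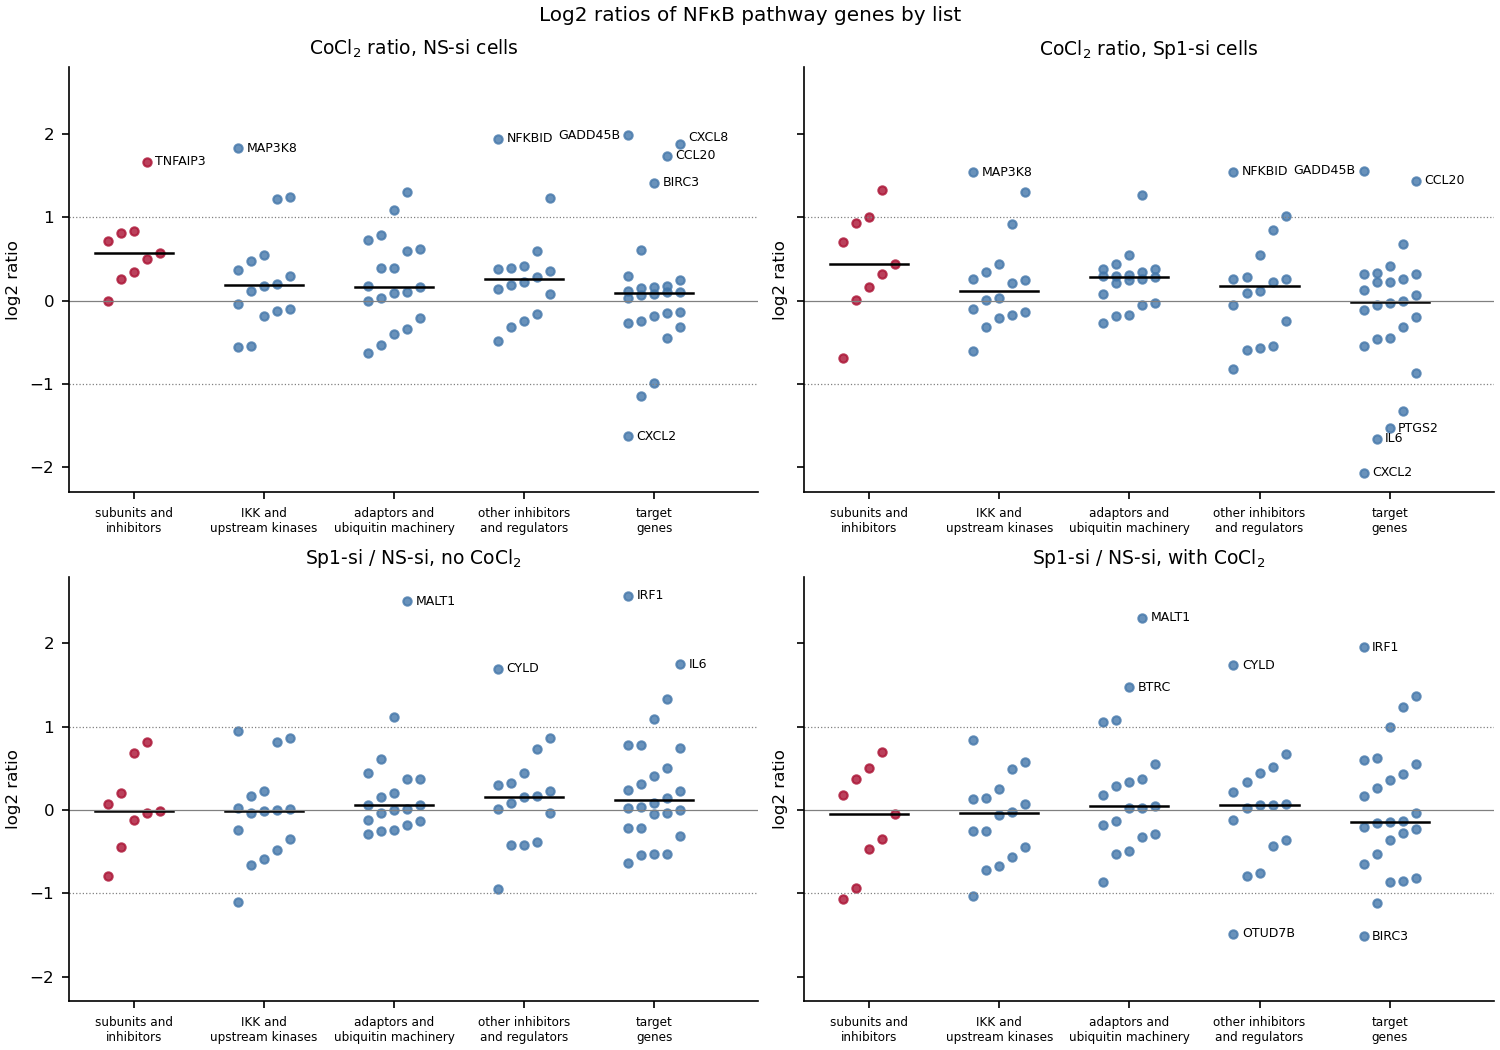
Log2 ratios (vertical axes) in the 4 comparisons for the NFκB subunits and inhibitors (red) and for 4 lists of other pathway genes (blue), each gene by its brightest probe and well above background on all 4 arrays. Black lines are medians of the plotted genes, dotted lines mark 2-fold, and genes beyond a log2 ratio of 1.4 are named. The red points sit mostly above 0 with CoCl2 in both kinds of cells, and MALT1 and IRF1 stand highest where Sp1-si is compared with NS-si cells.

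The probe of the group with the widest range over the arrays was TNFAIP3 A_24_P166527, at 1.93 on the log2 scale. Among 14282 other genes, those whose log2 values, each centred on its own mean, lay nearest to it over the 4 arrays were ARFGEF3 (root mean square distance 0.046), RNF217 (0.074), SERTAD2 (0.098), BHLHE40 (0.099) and JUNB (0.13). The scaled signals of JUNB, a subunit of the AP1 transcription factor, were 5061 without and 15890 with CoCl2 in NS-si cells, and 5576 without and 18968 with CoCl2 in Sp1-si cells. Those of BHLHE40, a transcriptional repressor induced by hypoxia, were 859, 2787, 846 and 3524 in the same order. In these genes, as in TNFAIP3, both CoCl2 arrays lay above both others, which follows from picking them by their likeness to its probe. With only 4 arrays behind each distance and spot SDs of 0.29 to 0.36 for the ratios of the TNFAIP3 probe, this likeness is a description.

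**Figure D5:**
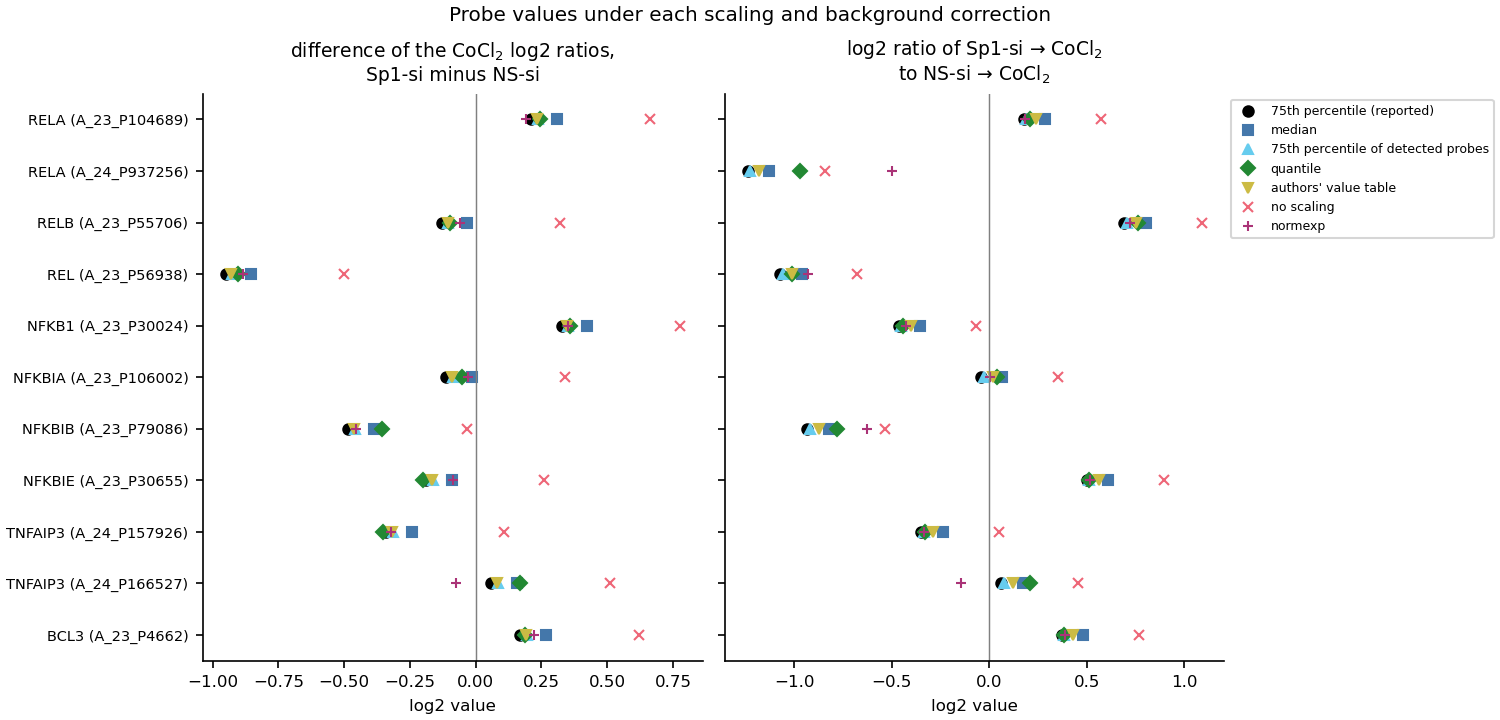
The difference of the CoCl2 log2 ratios (left) and the log2 ratio of Sp1-si → CoCl2 to NS-si → CoCl2 cells (right) for each probe under 6 alternatives and as reported (black circles). The left panel leaves out the RELA probe that was not well above background in Sp1-si → CoCl2 cells. The values without scaling (crosses) stand to the right of the reported ones for all probes, and REL stays below 0 in both panels.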

How the data were processed

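A contract service measured the RNA of 4 conditions on 4 Cy3 arrays of the Agilent human whole genome design. The authors deposited intensities as Agilent Feature Extraction 10.5.1.1 wrote them (background subtracted and detrended within each array, not normalized between arrays), with calls of outlier spots and of spots well above background. Their value table holds the same intensities multiplied by 1 constant per array and was used as an alternative only. Outlier spots and controls were left out, log2 processed signals were reduced by the 75th percentile of the array, and spots of the same probe were averaged. A probe counted as well above background with 50% or more of its kept spots so called. Where only 1 side of a ratio was, a bound is given, computed with the lowest signal among probes well above background on the dim array, and where neither was, nothing is given. Probes were named by RefSeq accession, which gave 26222 probes a symbol. Genes of the wider lists are named where they passed 2-fold, up to the 6 largest per comparison among genes well above background on all 4 arrays. The members and lists were chosen with earlier results of these data known. Alternatives covered the scaling, the source of values, outlier spots, background correction, filter and threshold. The counting was tested on simulated data. Normexp and quantile normalization used limma 3.58.1 in R 4.3.3, and all else Python 3.11.15 with numpy 2.4.6 and pandas 2.3.3, with figures by matplotlib 3.10.9. The number of arrays limits the precision.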

Additional observations from a re-analysis of the deposited data

Results flagged for a closer look

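REL (A_23_P56938) stood out because its CoCl2 ratios had opposite signs, 0.27 in control and -0.68 in Sp1-silenced cells on the log2 scale, each larger than the spread between spots. Without scaling the value in control cells was 0.041, smaller than its spot SD of 0.071. The difference was -0.95, and with 1 array per condition it was not tested.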

How the results depend on the processing

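Of 55 ratios and differences of the 11 probes, recomputed under 7 alternatives, 362 of 385 values kept their sign and 23 changed it, and the 7 ratios past 2-fold kept their sign in 49 of 49 values and stayed past 2-fold in 37. The count of probes past 2-fold between Sp1-si → CoCl2 and NS-si → CoCl2 cells (2) was 1 without scaling (then RELB, higher), 1 with median scaling, 1 with quantile normalization, 0 with normexp, 1 with the filter on all 4 arrays and 4 at 1.5-fold. The count with CoCl2 in NS-si cells (2) was 1 with normexp and 5 at 1.5-fold, and in Sp1-si cells (3) it was 1 with normexp and 7 at 1.5-fold. The count between Sp1-si and NS-si cells (0) was 3 at 1.5-fold, and the count for the difference of the CoCl2 ratios (0) was 1 at 1.5-fold and 1 without a filter on background. The other alternatives left each of these counts within 1.5 times. Of 28 values of genes named from the wider lists, 21 were past 2-fold under all 7 alternatives. The 28 leave out the values of TAB3 and that of IL6 with CoCl2 in NS-si cells. The values of the 28 that were lost were CXCL8 and CCL20 with CoCl2 in NS-si cells and BTRC (0.97) between Sp1-si and NS-si cells, each with normexp, and the differences of the CoCl2 ratios of CXCL8, OTUD7B, PTGS2 and BCL10. With normexp the targets lower in Sp1-si → CoCl2 than in NS-si → CoCl2 cells went from 3 to 1, and the 2 targets with a lower difference of the CoCl2 ratios went to 0 with normexp and without scaling. Counts over the wider lists that moved by more than 1.5 times and are not given with the results were of 2 or fewer genes and moved by 1. The cause of these moves was not tested, apart from the filter and the threshold, which change which probes are counted. Without scaling, the median log2 ratio of all probes was -0.21 with CoCl2 in NS-si cells, 0.21 in Sp1-si cells and 0.33 between Sp1-si → CoCl2 and NS-si → CoCl2 cells. The planned normexp correction on mean signals could not be run, since no column of mean signals was used here, and normexp on median signals with an offset of 50 was chosen after seeing the data. No paired analysis was possible because each condition had 1 array. Probes near background, such as the dim RELA and TNFAIP3 probes, have the widest spot SDs.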
